A study of Mus musculus with 9 samples.

Results

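The genes described here are 10 immediate early and AP-1 genes, *Fos*, *Fosb*, *Jun*, *Junb*, *Jund*, *Atf3*, *Egr1*, *Nr4a1*, *Ier2* and *Dusp1*, in splenic type 2 dendritic cells of the mouse. They were taken by symbol from a named list, because preparing cells from tissue can induce them; no measured value enters that rule, but the list was drawn up with earlier results of these data known. All 10 were among the 24054 genes of the files, and all 10 were among the 14452 genes tested, those averaging 1 read or more per library.

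There were 3 groups of 3 libraries each, compared by mRNA sequencing. One was TOM+ cDC2, another TOM- DC2, both sorted from spleens at postnatal day 8, and the last was TOM+ cDC2 from adults, of which 1 library came from an age of 9 weeks and 2 from an age of 8 weeks. Every group had a C57BL/6 background and the genotype Clec9a-Cre/Cre Rosa-tdTomato/tdTomato, so all groups carried the same alleles. In these animals Cre is driven from *Clec9a*, a gene of dendritic cell precursors and cDC1, and TOM marks cells with a history of its expression; it reports ancestry and not a present state. The sort took live, single, non-autofluorescent cells with MHCII, CD11c and CD11b, and split them by TOM. Spleens of the young mice were pooled. Spleens of both ages were minced, digested with collagenase at body temperature and enriched for CD11c before sorting into lysis buffer. Libraries are named by their group and by the number in the deposited names (81, 91 and 92 in both young groups; 91, 92 and 95 in adults), whose meaning is not stated.

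Immediate early genes are transcribed within minutes of a stimulus, without new protein synthesis, when MAP kinase and calcium or cAMP signals activate factors already bound at their promoters. Their messages are short-lived. *Fos* and *Fosb* encode partners that pair with *Jun*, *Junb* or *Jund* to form the AP-1 transcription factor, and Atf3 can pair with Jun proteins. *Egr1* and *Nr4a1* encode a zinc finger factor and an orphan nuclear receptor, *Ier2* a small nuclear protein, and *Dusp1* a phosphatase that switches MAP kinases off again. In dendritic cells this programme follows microbial and cytokine signals, and it is also known to respond to enzymatic tissue digestion and handling.

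Reads on genes ranged from 12783252 to 22809401 per library. Levels are given in TPM, a transcript abundance scaled by transcript length and by library. The cDC2 markers summed to 73766 to 78584 in young TOM+, 70187 to 75641 in young TOM- and 111713 to 115081 in adult libraries. *Cd74* alone averaged 44852, 43098 and 63199 TPM in this order, so most of each sum was *Cd74*. *Sirpa* (753, 688 and 470 TPM) and *Itgam* (147, 147 and 77.9 TPM) were lower in adults. *Cd209a* (221, 161 and 496 TPM) and *Clec4a4* (108, 126 and 259 TPM) were higher in adults. *Itgax*, which encodes CD11c, lay between 300.7 and 463 TPM. *Esam*, a gene of one cDC2 subset, averaged 19.0, 28.4 and 80.0 TPM and the lectin gene *Clec10a* 43.2, 53.7 and 11.7 TPM in the same order of groups. *Clec9a* itself was between 0.05 and 0.34 TPM. Erythroid markers summed to 52.3 to 95.7 TPM in young TOM+ libraries and 1.39 to 13.2 TPM in adults. In young TOM- libraries they ran from 52.2 to 1172.5 TPM, with the highest sum in library 81. Macrophage markers (6 of a list of 7 were found) summed to 134 to 166 TPM in young TOM+ cells, 212 to 264 TPM in young TOM- cells and 91.5 to 135 TPM in adults. Monocyte markers summed to 263 to 291, 208 to 253 and 179 to 204 TPM in the same order. The part of these markers in the age differences was not tested. In bulk libraries, fewer cells with a transcript and less of it per cell cannot be told apart.

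Promoter sequence of 8 of the 10 genes was matched by symbol in RefSeq (build GRCm38.p6). The 150 bases before the transcript start are shown for all 8, so that the letters can be set beside the levels. Capitals mark TGACG, the core of the cAMP response element bound by CREB and ATF factors, on either strand (CGTCA on the shown one), and each line reads 5′ to 3′ on the gene's strand.
Fos (chr12:85473740-85473889, plus strand): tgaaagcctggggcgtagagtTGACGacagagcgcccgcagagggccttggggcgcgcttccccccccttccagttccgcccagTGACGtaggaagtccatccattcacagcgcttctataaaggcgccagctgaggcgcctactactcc
Fosb (chr7:19310046-19310195, minus strand): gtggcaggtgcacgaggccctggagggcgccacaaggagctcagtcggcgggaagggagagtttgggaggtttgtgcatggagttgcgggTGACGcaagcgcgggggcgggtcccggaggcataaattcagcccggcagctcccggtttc
Junb (chr8:84978749-84978898, minus strand): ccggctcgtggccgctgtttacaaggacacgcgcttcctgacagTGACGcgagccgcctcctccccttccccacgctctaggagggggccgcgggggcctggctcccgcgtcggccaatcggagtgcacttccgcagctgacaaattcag
Atf3 (chr1:191183334-191183483, minus strand): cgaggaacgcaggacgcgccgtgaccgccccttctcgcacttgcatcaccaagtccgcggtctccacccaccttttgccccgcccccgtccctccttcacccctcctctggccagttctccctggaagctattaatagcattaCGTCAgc
Nr4a1 (chr15:101266696-101266845, plus strand): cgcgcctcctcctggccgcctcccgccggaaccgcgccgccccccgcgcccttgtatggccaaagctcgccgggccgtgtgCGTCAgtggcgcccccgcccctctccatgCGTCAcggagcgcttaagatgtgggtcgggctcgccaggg
Dusp1 (chr17:26508473-26508622, minus strand): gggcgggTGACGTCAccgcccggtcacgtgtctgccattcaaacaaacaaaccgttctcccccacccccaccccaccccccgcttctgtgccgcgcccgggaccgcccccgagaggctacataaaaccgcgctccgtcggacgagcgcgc
Jund (chr8:70697589-70697738, plus strand): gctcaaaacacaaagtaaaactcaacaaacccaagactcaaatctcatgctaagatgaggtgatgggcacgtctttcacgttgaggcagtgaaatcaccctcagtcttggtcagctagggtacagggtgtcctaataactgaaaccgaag
Jun (chr4:95052223-95052372, minus strand): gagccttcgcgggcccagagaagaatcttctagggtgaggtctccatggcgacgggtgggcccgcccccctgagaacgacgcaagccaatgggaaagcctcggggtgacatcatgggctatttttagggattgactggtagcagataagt

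Over the 250 bases before the start, TGACG was found in 6 of the 8 promoters (*Fos*, *Fosb*, *Junb*, *Atf3*, *Dusp1* and *Nr4a1*) and in 17.9% of 27025 promoters of the same length, and not in the windows of *Jun* and *Jund*. *Jund*, without the core, moved with the other members between libraries, and *Jun*, also without it, did not. Whether the core has any part in this was not tested. The full palindrome TGACGTCA, which contains the core on both strands, was found in *Dusp1* and in 1.62% of all promoters. TATAAA, searched on the gene's strand, was found in *Fos*, 33 to 28 bases before the start, and in 8.12% of all promoters. The AP-1 site TGACTCA, on either strand, was in none of the 8 windows and in 4.43% of all promoters. The CArG box bound by serum response factor was likewise in none of the 8 and in 1.40% of all. Only exact matches were counted, so near matches such as tgacatca in the *Jun* window were left out. Sites more than 250 bases before the start, and the promoters of *Egr1* and *Ier2*, were not searched. These are matches of letters in a short window and say nothing about what was bound. *Egr1* lies on chromosome 18 and *Ier2* on chromosome 8; no sequence is shown for either. The *Nr4a1* and *Fosb* starts used here lie within the annotated genes, which span chr15:101253902-101274795 and chr7:19302696-19310118.

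All 10 genes were abundant transcripts in all 9 libraries. Their counts lay between 4946 and 97001 reads, so counting error was small beside the differences between libraries. Summed over the 10, they made up 1.44 ± 0.269% of TPM in young TOM+ cDC2, 1.43 ± 0.294% in young TOM- DC2 and 2.03 ± 0.342% in adult cDC2 (SD, n = 3 each). By single library the share was 1.13, 1.56 and 1.62% in young TOM+ libraries 81, 91 and 92, 1.09, 1.55 and 1.64% in young TOM- libraries 81, 91 and 92, and 2.41, 1.93 and 1.74% in adult libraries 91, 92 and 95. Both libraries numbered 81 were the lowest of their group, and every adult library exceeded every young one.

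On the TPM scale, which allows genes to be compared, *Junb* had the highest mean level over all libraries, 3740.4 TPM, and ranked between 15 and 22 among the genes tested. *Fos*, *Dusp1* and *Nr4a1* followed at 2643, 2580.1 and 2566 TPM, and their ranges overlapped one another in each group. *Atf3* and *Ier2*, at 1372 and 1286 TPM, also overlapped each other in each group. *Egr1* had a mean of 806 TPM, and *Jund*, *Jun* and *Fosb*, at 463, 436 and 416 TPM, were the least abundant and could not be ordered beyond their spread. In young cells *Junb* stood above the next gene without overlap, while in adults the ranges of *Junb* and *Fos* overlapped.

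**Figure D1:**
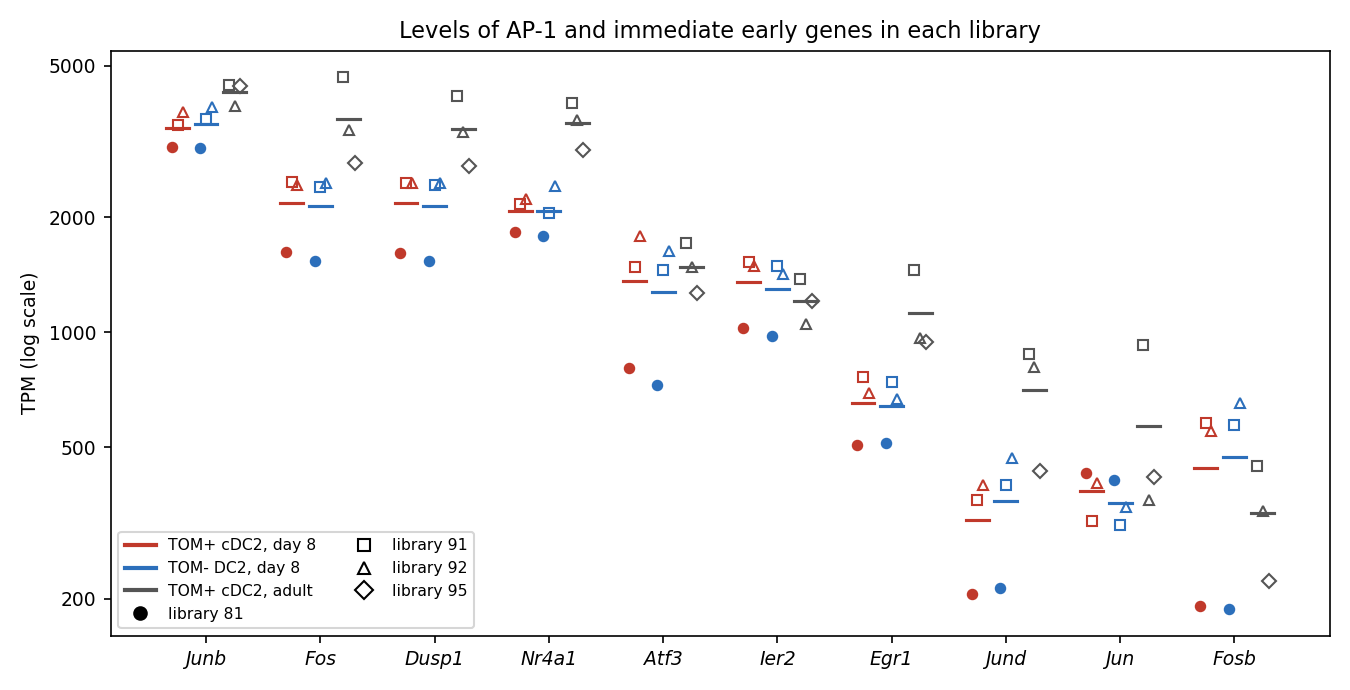
Level of each gene in TPM (vertical axis, log scale) by library, for young TOM+ cDC2 (red), young TOM- DC2 (blue) and adult TOM+ cDC2 (grey), with lines at the group means of 3 libraries. Symbols give the library number, and the filled circles of libraries 81 lie lowest of the young libraries for every gene but *Jun*.

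In the Fos family, *Fos* and *Fosb* differed in how they stood between ages. *Fos* was at 1624, 2479 and 2435 TPM in young TOM+ libraries 81, 91 and 92, at 1540.8, 2408 and 2461 TPM in the young TOM- libraries of the same numbers, and at 4660.1, 3396 and 2785 TPM in adult libraries 91, 92 and 95. The adult libraries lay above all young ones. *Fosb* was at 192, 577 and 552 TPM in young TOM+ cells, 188, 572 and 651 TPM in young TOM- cells and 446, 340.2 and 222 TPM in adults, in the same order of libraries. Both libraries 81 lay below every adult library, and the other 4 young libraries lay above every adult library, so the adult range fell inside the young one.

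In the Jun family, *Junb* varied least. It was at 3066, 3488 and 3774 TPM in young TOM+ libraries 81, 91 and 92, at 3035, 3619.7 and 3889.6 TPM in young TOM- cells and at 4461, 3921 and 4410.7 TPM in adult libraries 91, 92 and 95. Adult levels again did not overlap the young ones. *Jund*, whose product is known as the more constantly expressed Jun protein, was at 206, 362 and 396 TPM in young TOM+ cells, 214, 397 and 469 TPM in young TOM- cells and 874, 812 and 434 TPM in adults. Adult library 95 lay below young TOM- library 92, and the other 2 adult libraries lay above all young ones. *Jun* was at 427, 319 and 402 TPM in young TOM+ cells, 410.5, 312 and 349 TPM in young TOM- cells and 926, 364 and 417 TPM in adults. Adult library 91 stood alone for *Jun*, and the remaining 8 libraries lay between 312 and 427 TPM.

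*Atf3*, a stress-induced factor of the ATF family, was at 806, 1482 and 1789.5 TPM in young TOM+ libraries 81, 91 and 92, 726, 1459 and 1630.5 TPM in young TOM- cells and 1709, 1486 and 1265 TPM in adult libraries 91, 92 and 95. As with *Fosb*, both libraries 81 lay below the adult range, which the other young libraries overlapped. *Ier2* was at 1028, 1529 and 1494 TPM, 976, 1492 and 1425 TPM and 1376, 1049 and 1208 TPM in the same order, and here the 2 libraries 81 lay below every adult library and the other 4 young libraries above every adult library.

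*Egr1* was at 505, 764 and 692 TPM in young TOM+ libraries 81, 91 and 92, 513, 742 and 669 TPM in young TOM- cells and 1455, 966 and 943 TPM in adult libraries 91, 92 and 95. *Nr4a1* was at 1831, 2170.4 and 2231 TPM, 1783, 2049 and 2418 TPM and 3997, 3611 and 3004 TPM in the same order. *Dusp1* was at 1615, 2466 and 2456 TPM, 1541, 2439.6 and 2466 TPM and 4152, 3349 and 2735 TPM. For each of these 3 genes every adult library lay above every young one, and libraries 81 were the lowest of all.

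The first comparison asked whether the 2 young populations, which differ in TOM history, differed in these genes. None of the 10 differed between young TOM+ cDC2 and young TOM- DC2 in edgeR's quasi-likelihood test with Benjamini-Hochberg adjustment over all tested genes (0 of 10, lowest adjusted p = 0.960), against 1.6% of all genes past an adjusted p of 0.05. None had an unadjusted p under 0.05 either, DESeq2 called 0 as well, and 0 of 10 had groups that did not overlap, against 16.6% of all genes. With a further limit of an absolute log2 fold change over 1, the call was made for 0 of the 10 and for 1.18% of all genes. The log2 fold changes lay between -0.13 (*Jund*) and 0.13 (*Jun*). The 95% confidence intervals were wide: for *Junb*, the narrowest, -0.28 to 0.28, and for *Fosb*, the widest, -1.10 to 0.96. In this fit, which did not pair libraries by number, a difference of that size in *Fosb* was thus not detectable over this spread.

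That spread was shared by libraries of the same number. Within number 81 the TOM+ library differed from the TOM- library by -0.01 to 0.19 on the log2 CPM scale (normalised counts, scaled by library) over the 10 genes, within number 91 by -0.10 to 0.10 and within number 92 by -0.21 to 0.24. With the number as a block in a fit of the 6 young libraries alone, 2 of the 10 genes passed the threshold, both slightly higher in TOM+ cells, against 11.8% of all genes in that fit. These were *Atf3* (log2 fold change 0.13, 95% confidence interval 0.06 to 0.21, edgeR adjusted p = 0.0181) and *Jun* (0.13, 0.04 to 0.21, edgeR adjusted p = 0.0476); over the other alternatives both adjusted p-values ran up to 1. Both were higher in the TOM+ library within each of the 3 numbers. As a description, *Fos*, *Egr1*, *Ier2* and *Dusp1* were so too and *Jund* was lower in each. The other 8 genes missed the threshold in that fit, with intervals such as -0.06 to 0.07 for *Junb* and -0.13 to 0.05 for *Fosb*. Those of *Jund* (-0.20 to -0.02, edgeR adjusted p = 0.0972) and *Ier2* (0.02 to 0.16, edgeR adjusted p = 0.108) did not span 0. With all 9 libraries in the blocked fit 0 of 10 passed.

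Each young population was then compared with adult cDC2. Both comparisons share the adult libraries and are therefore not independent of each other. Against young TOM+ cDC2, 6 of the 10 genes, *Fos*, *Junb*, *Jund*, *Egr1*, *Dusp1* and *Nr4a1*, were lower in the young cells than in adult cDC2 past an adjusted p of 0.05 (edgeR), and 0 were higher. Over all genes 40.6% passed in either direction, 19.5% lower and 21% higher in young cells. The 6 genes were also those whose groups did not overlap, which held for 51.1% of all genes. The median log2 fold change of the 10 was -0.74, and that of all tested genes 0.05.

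*Nr4a1* had the lowest p of the 10, with a log2 fold change of -0.89 ± 0.155 (SE; edgeR adjusted p = 0.00065). *Egr1* was lower by a similar amount, -0.90 ± 0.221 (adjusted p = 0.00626, edgeR). *Jund* had the largest fold change, -1.26 ± 0.348, and was the only one of the 10 past both an adjusted p of 0.05 and an absolute log2 fold change of 1 (edgeR adjusted p = 0.0123), criteria that 12.8% of all genes met. *Fos* (-0.85), *Dusp1* (-0.77) and *Junb* (-0.43) passed with edgeR adjusted p-values of 0.0158, 0.0198 and 0.0183. *Jun* had a log2 fold change of -0.71 and missed the threshold (adjusted p = 0.058, edgeR); it passed with no count filter (edgeR adjusted p = 0.0266) and with a minimum average of 10 reads (0.0482), and missed it in DESeq2 (0.128). *Fosb* (0.27), *Ier2* (0.04) and *Atf3* (-0.24) had edgeR adjusted p-values of 0.686, 0.892 and 0.583, and for *Fosb* the interval ran from -0.76 to 1.30.

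Against young TOM- DC2, 7 of the 10 genes were lower in the young cells past the threshold and 0 were higher, against 36.3% of all genes in either direction, 16.9% lower and 19.4% higher. They were *Nr4a1* (-0.92), *Egr1* (-0.96), *Fos* (-0.91), *Dusp1* (-0.82), *Junb* (-0.43), *Jund* (-1.12) and *Jun* (-0.84), with edgeR adjusted p-values from 0.000636 to 0.0315. DESeq2 passed 6, without *Jun* (DESeq2 adjusted p = 0.0696). *Jund* was the only one also past a log2 fold change of 1, which with the adjusted p held for 11.3% of all genes, although its groups overlapped. Groups did not overlap for 6 of the 10, against 47.6% of all genes, in normalised counts; for *Jun* this held in normalised counts and not in TPM. *Fosb* (0.34), *Ier2* (-0.04) and *Atf3* (-0.37) had edgeR adjusted p-values of 0.608, 0.883 and 0.401. The median over the 10 genes was -0.83, and 0.07 over all genes.

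**Figure D2:**
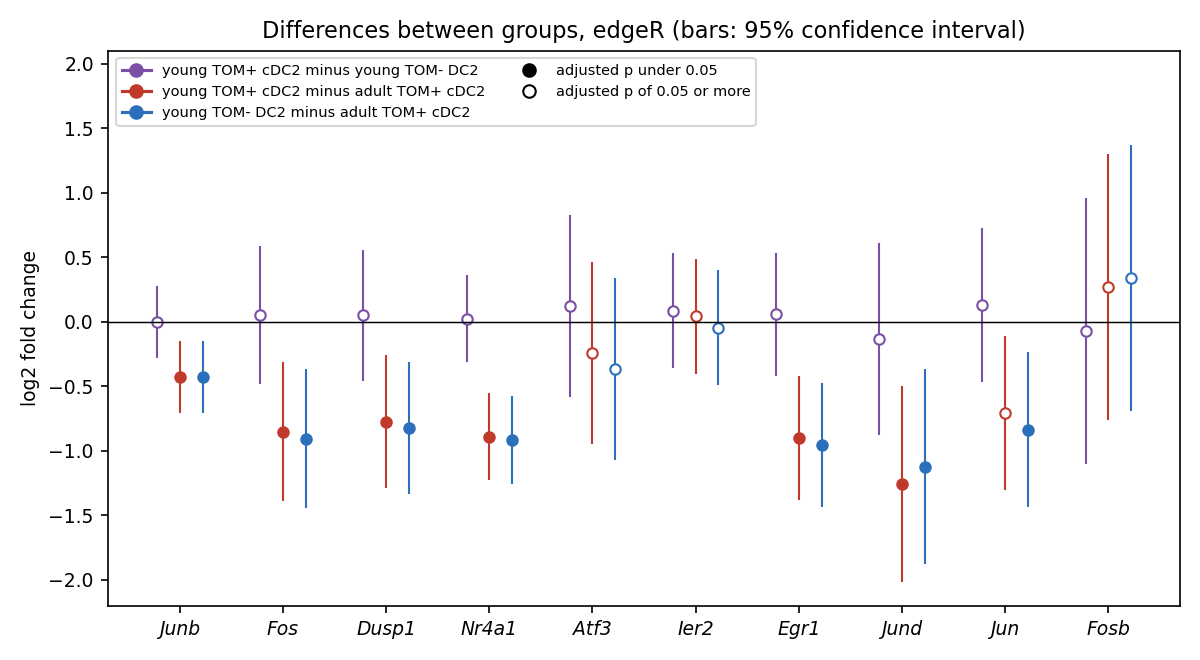
Log2 fold change of each gene (vertical axis) in the 3 comparisons, from edgeR on 9 libraries, with 95% confidence intervals as bars; filled points have an adjusted p under 0.05. All purple intervals, which compare the young populations, span 0, while *Junb*, *Fos*, *Dusp1*, *Nr4a1*, *Egr1* and *Jund* lie below 0 against adults in both red and blue.

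Several of these calls were lost when 1 adult library was left out. Without adult library 91, 2 of the 10 genes, *Nr4a1* and *Egr1*, stayed past the threshold in both age comparisons, while *Fos*, *Junb*, *Jund* and *Dusp1* missed it in both and *Jun* missed it too; over all genes 34.8% and 30.8% passed there. Their log2 fold changes against TOM+ cells were then -0.61 for *Fos*, -0.38 for *Junb*, -1.07 for *Jund* and -0.60 for *Dusp1*. Against TOM- cells they were -0.67, -0.38, -0.94 and -0.64, while *Jun* moved to -0.15 and -0.28. Over the 9 libraries left out in turn, the edgeR adjusted p against young TOM+ cDC2 ran from 0.00498 to 0.0815 for *Fos*, from 0.00561 to 0.0672 for *Junb*, from 0.00331 to 0.0522 for *Jund* and from 0.00555 to 0.0909 for *Dusp1*. For *Jun* it ran from 0.0181 to 0.376, with log2 fold changes from -0.94 to -0.15. *Nr4a1* (at most 0.00401) and *Egr1* (at most 0.0333) stayed past the threshold throughout.

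Leaving out other single libraries changed other calls. Without young TOM+ library 81, 4 genes passed in the TOM+ comparison (*Fos*, *Nr4a1*, *Egr1* and *Jund*), beside 38.1% of all genes, and without young TOM- library 81, 5 passed in the TOM- comparison (*Fos*, *Nr4a1*, *Dusp1*, *Egr1* and *Jun*), beside 34.8%. Without adult library 92, where 35% and 31.1% of all genes passed, *Dusp1* missed the threshold and *Jun* passed it for TOM+ cells, and *Jund* missed it for TOM- cells. Without adult library 95, 7 of 10 passed in each, *Jun* among them, beside 36.3% and 33% of all genes. In the TOM- comparison *Jun* also missed it without young TOM- library 91 or 92.

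With both young libraries numbered 81 left out, 6 genes were lower and 1, *Fosb*, higher than in adults past the threshold for TOM+ cells. For TOM- cells 7 were lower and 1, again *Fosb*, higher. Over all genes 40.5% and 37.2% passed in either direction. *Fosb* then had a log2 fold change of 0.62 for TOM+ cDC2 and 0.72 for TOM- DC2. These libraries were left out after their low *Fosb* was seen, so these counts and fold changes are given as a description only. *Atf3* moved from -0.24 to 0.02 in the TOM+ comparison. In young libraries 91 and 92, *Fos* lay below and *Fosb* above every adult library in TPM.

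Within the numbers that both ages carry, the young TOM+ library was lower than the adult library in 8 of the 10 genes for number 91 (median log2 CPM difference -0.93) and in 6 for number 92 (median -0.37). For the young TOM- libraries it was 9 genes (median -0.99) and 8 genes (median -0.41). Each count compares single libraries and is a description with no test. Adult library 91 was the highest adult library for all 10 genes. *Jun* differed by -1.64 and -1.69 within number 91 and by 0.02 and -0.21 within number 92. Libraries of young and adult cells with the same number did not deviate together over all genes, so the numbers were not taken to pair the ages.

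The variation between libraries of a group was large for most of these genes. The SD of log2 CPM within groups, pooled over groups, was 0.88 for *Fosb*, 0.61 for *Jund*, 0.58 for *Atf3* and 0.45 for *Jun*, and its median over the 10112 genes averaging 50 reads or more was 0.15. *Fos*, *Dusp1*, *Egr1* and *Ier2* lay at 0.42, 0.40, 0.37 and 0.34, and *Nr4a1* and *Junb* at 0.25 and 0.20. The quasi-likelihood dispersion, edgeR's measure of spread beyond that expected for the gene's abundance, placed 8 of the 10 above 96.7% or more of all tested genes. *Nr4a1* and *Junb* lay at the percentiles 81.5 and 58.7.

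Much of this spread was a difference of the libraries numbered 81 from the other young libraries. In both young groups, 9 of the 10 genes were lower in library 81 than the mean of libraries 91 and 92, against 36.1% of all tested genes lower in both. For 7 of the 10 genes, the difference exceeded 0.5 on the log2 CPM scale in both groups, as it did for 3.47% of all genes. For *Fosb* the difference was -1.66 in TOM+ and -1.82 in TOM- cells, which is 3.15-fold and 3.53-fold lower. It was -1.12 and -1.21 for *Atf3*, -0.99 and -1.13 for *Jund*, -0.70 and -0.78 for *Fos* and -0.71 and -0.78 for *Dusp1*, in the same order. *Ier2* (-0.66 and -0.70) and *Egr1* (-0.63 and -0.58) followed, and *Nr4a1* (-0.37 and -0.44) and *Junb* (-0.35 and -0.43) differed by less. *Jun* alone was higher in libraries 81, by 0.14 and 0.19. With 1 library per number and group this is a description with no test.

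**Figure D3:**
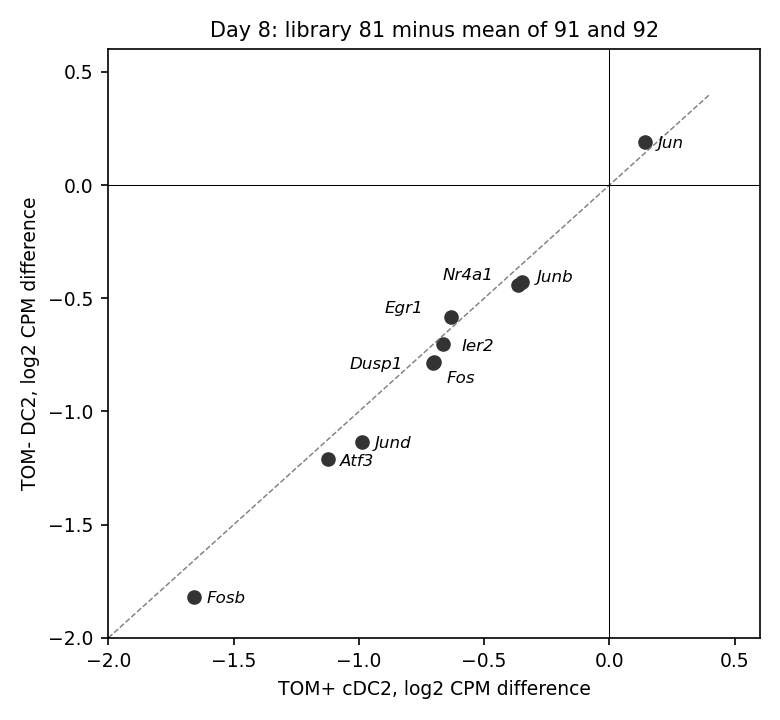
Difference in log2 CPM between library 81 and the mean of libraries 91 and 92, in young TOM+ cDC2 (horizontal axis) and in young TOM- DC2 (vertical axis), with 1 point per gene; the dashed line marks equal differences. The genes lie along the line from *Fosb* (-1.66 and -1.82) to *Jun* (0.14 and 0.19).

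Some library measures also set libraries 81 apart. Reads mapping outside annotated genes were 11.8% in young TOM+ library 81 and 8.84% and 9.16% in the other TOM+ libraries, and 12.8% against 10.7% and 11.4% in TOM- libraries, with 15.2% to 17.1% in adults. Erythroid markers summed to 1172.5 TPM in TOM- library 81 but to 62.6 TPM in TOM+ library 81, which lay inside the range of its group. Neutrophil markers (5 of a list of 6 were found) summed to 14.0 TPM in TOM- library 81 and 0.58 TPM in TOM+ library 81. Their part in the level of the immediate early genes was not tested.

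The deviation of each library from its group mean showed the same profile in both young populations. Over the 10 genes, the deviations of the TOM+ and TOM- libraries correlated with r = 0.996 for number 81, 0.969 for number 91 and 0.930 for number 92. The deviations of a gene cancel out within a group of 3 libraries, so a low library 81 raises the deviations of 91 and 92. The 3 values of r are therefore not independent of each other. These points also share the gene's own spread and are given as a description. In adults, library 91 was the highest of the 3 for all 10 genes, against 29.7% of all genes, and 7 of the 10 genes followed the order 91, 92, 95, against 15.4% of all genes. Library 91 was the one from mice of 9 weeks, so its age and its number cannot be told apart. It exceeded the mean of libraries 92 and 95 most for *Jun*, by 1.28 on the log2 CPM scale, and least for *Junb*, by 0.13.

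**Figure D4:**
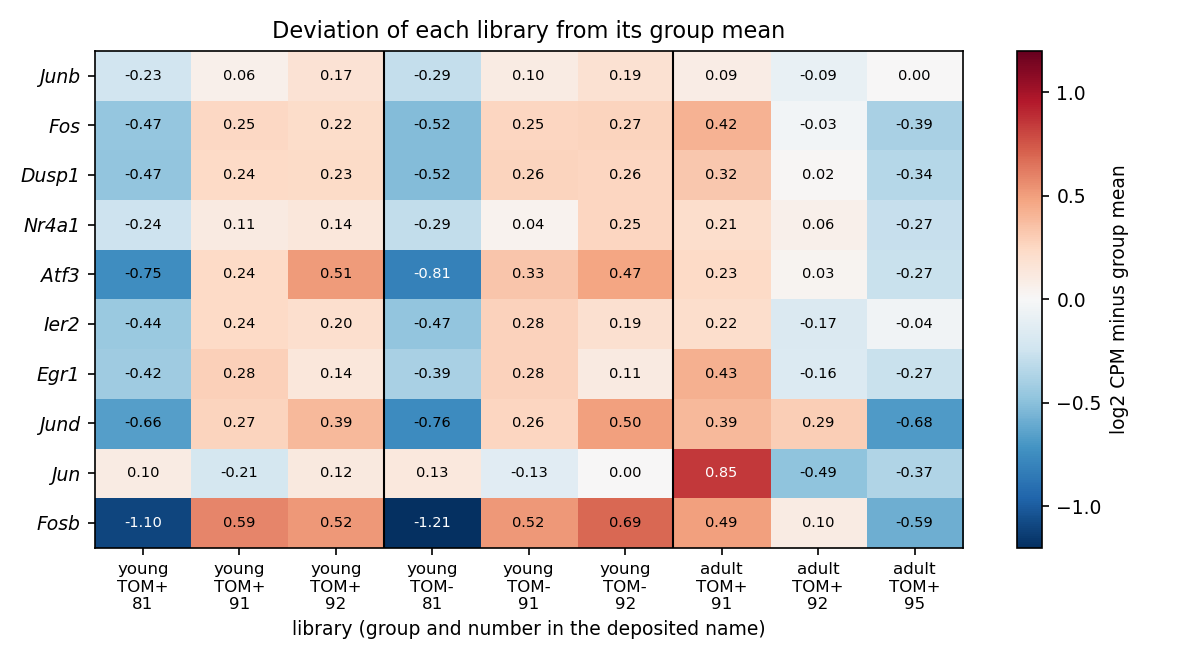
Log2 CPM of each gene in each library minus its group mean (colour and printed value), with rows for genes and columns for libraries by group and number. Columns 81 are negative for every gene but *Jun* in both young groups, and adult column 91 is positive for all 10.

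*Jun* was the member that did not follow the others. Across the 9 libraries, deviations from the group means correlated between the other 9 genes with r from 0.80 to 0.99 over 36 pairs (median 0.93), while those of *Jun* correlated with them at 0.05 to 0.38 (median 0.14). *Fos* and *Dusp1* had the highest value, r = 0.99. The 9 libraries share group means and library scaling, so these values describe the libraries and carry no test.

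The genes whose deviations were most like the mean profile of the 10 were *Tceb2*, *Siah2*, *Cd44*, *Dyrk3*, *Klf2*, *Klf6*, *Tsc22d3*, *Cdk2ap1*, *Socs1* and *Rassf3*, with r from 0.976 to 0.991 over 9 libraries, among 10102 other genes averaging 50 reads or more. *Klf2* and *Klf6* encode zinc finger factors that are themselves early response genes, *Socs1* an inhibitor of cytokine signalling and *Tsc22d3* the glucocorticoid-induced leucine zipper protein. In libraries 81 the log2 CPM difference from the other young libraries was -1.16 and -1.24 for *Klf2*, -1.74 and -1.56 for *Dyrk3* and -0.30 and -0.34 for *Tceb2*. On the log2(TPM + 1) scale 6 of the 10 remained among the top 10. *Tceb2* had r = 0.83 and rank 172 there, *Rassf3* rank 39 and *Socs1* rank 12, and *Cdk2ap1* had r = -0.21.

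Related genes were read from lists named by function. Of 34 other immediate early and early response genes, 22 were lower and 4 higher in young TOM+ cDC2 than in adult cDC2 past an adjusted p of 0.05, with a median log2 fold change of -0.85. Against young TOM- DC2 the counts were 20 lower and 3 higher, and the median -0.60. Without adult library 91 they were 20 lower and 2 higher, and 17 lower and 3 higher. Without both libraries 81 they were 24 lower and 3 higher, and 23 lower and 4 higher. Over all genes, the medians were 0.05 and 0.07. Past the threshold were 19.5% of all genes lower and 21% higher for TOM+ cells, and 16.9% lower and 19.4% higher for TOM- cells. Without adult library 91, 34.8% and 30.8% of all genes passed in either direction. Without both libraries 81 it was 40.5% and 37.2%.

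In young TOM+ cDC2, the largest falls from the lists were in *Rhob*, a small GTPase gene, *Nr4a3*, a relative of *Nr4a1*, and *Plk3*, a stress-responsive kinase gene. *Plk3* was at 67.4, 80.96 and 78.8 TPM in young TOM+ libraries 81, 91 and 92, 71.1, 105 and 102 TPM in young TOM- libraries and 287, 359 and 217 TPM in adult libraries 91, 92 and 95. Its log2 fold change was -2.05 ± 0.211 for TOM+ and -1.78 ± 0.209 for TOM- cells (edgeR adjusted p = 1.35e-05 and 4.49e-05). *Rhob* fell by 2.27 and *Nr4a3* by 2.08 on the log2 scale in young TOM+ cDC2 (edgeR adjusted p = 7.03e-06 and 5.75e-06). In young TOM- DC2 the largest falls were in *Batf2*, *Rhob* and *Plk3*; *Rhob* fell by 2.08 and the AP-1 relative *Batf2*, at 0.127 against 0.613 TPM and with overlapping groups, by 2.46 (edgeR adjusted p = 1.70e-05 and 0.0342). *Rhob* was at 17.9, 12.0 and 18.6 TPM in young TOM+ libraries 81, 91 and 92 and at 21.1, 17.0 and 18.8 TPM in the TOM- ones, so libraries 81 were not its lowest.

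The largest rises were in genes of low level. *Maf*, a bZIP factor gene of macrophages, was at 0.58 TPM in young TOM+ and 1.16 TPM in young TOM- cells against 0.147 TPM in adults, with log2 fold changes of 1.86 and 2.84 (edgeR adjusted p = 0.008 and 0.000438). The chemokine gene *Cxcl1* was at 2.86 and 4.37 TPM against 0.647 TPM, with log2 fold changes of 1.80 and 2.51 (edgeR adjusted p = 0.0453 and 0.00835). *Fosl1*, which encodes the Fos relative Fra-1, was at 3.63 TPM in young TOM- cells against 0.9 TPM (1.49, edgeR adjusted p = 0.0302). *Cyr61* passed in young TOM+ cells (edgeR adjusted p = 0.0257) with 177, 34 and 3 reads in libraries 81, 91 and 92 against 0, 1 and 0 reads in the adult libraries, so no fold is given. The summed macrophage markers, given above, were also higher in young TOM- cells than in adults. That held for *C1qa*, *C1qb*, *C1qc* and *Spic*, while *Vcam1* (12.9 against 13.6 TPM) and *Cd5l* (0.153 against 0.377 TPM) were not higher. The part of these markers in the level of *Maf* was not tested.

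For the remaining lists, the counts stand beside the shares of all genes given above, 19.5% lower and 21% higher for TOM+ cells and 16.9% lower and 19.4% higher for TOM- cells. Of 20 early inflammatory response genes, 11 were lower and 2 higher in young TOM+ cells, and 11 lower and 1 higher in young TOM- cells, against adults. Of 18 other AP-1 and related bZIP genes 5 were lower and 6 higher, and 5 lower and 5 higher. Among 10 other MAP kinase phosphatase genes 4 were lower and 2 higher, and 1 lower and 2 higher. Of 31 genes for MAP kinases, ternary complex factors and CREB proteins upstream, 11 were lower in each comparison, and 4 and 2 were higher. Among 13 heat shock genes, 2 and 1 were lower and 0 were higher. Without adult library 95, 5 of these 13 were lower in each comparison, beside 36.3% and 33% of all genes in either direction. Without adult library 91 it was 1 lower and 1 higher in each, beside 34.8% and 30.8% of all genes.

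Between the young populations 1 gene of these lists passed, *Ier5l*, an early response gene. It was at 20.3, 17.4 and 24.6 TPM in young TOM+ libraries 81, 91 and 92 and at 47.0, 38.6 and 65.4 TPM in the TOM- libraries, without overlap, and its log2 fold change was -1.26 ± 0.183 (edgeR adjusted p = 0.00243). In the fit with the number as a block over the young libraries alone, 13 of the 34 other immediate early and early response genes were lower and 5 higher in TOM+ cells, beside 11.8% of all genes in either direction. Of the early inflammatory genes 7 were lower and 1 higher there, of the other AP-1 genes 3 lower and 0 higher, of the upstream genes 2 lower and 1 higher, of the phosphatases 1 each way, and of the heat shock genes 0 lower and 2 higher.

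The libraries 81 were also low in the related lists, as a description. Of the 34 other immediate early and early response genes 26 were lower in library 81 in both young groups, and of the 20 early inflammatory genes 18 were. The other AP-1 and related bZIP genes gave 14 of 18 and the phosphatases 6 of 10. For the upstream genes it was 11 of 31 and for the heat shock genes 3 of 13, beside 36.1% of all tested genes.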

How the data were processed

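Sample labels gave the groups; they carry no replicate numbers and do not name separate animals per library, so p-values measure the spread between libraries. The 10 members and all gene lists were chosen with earlier results of these data known. The authors aligned single-end reads to mm10 with STAR; the deposited counts per gene are not normalised, and the unstranded column was used because the cDNA kit does not mark strand. The authors deposited RSEM values of the same libraries namely expected counts, TPM and FPKM (FPKM not used); expected counts were rounded for an alternative. Versions of STAR and RSEM are not given in the sources used here. Reads unmapped, outside genes, multimapping or ambiguous, together 26.1% to 31.6% of the reads in the files, entered neither library sizes nor tests.

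Genes averaging 1 read or more were tested with edgeR 4.0.16 (R 4.3.3; TMM, quasi-likelihood, all 9 libraries, Benjamini-Hochberg adjustment over 14452 genes), and called at an adjusted p under 0.05 and an absolute log2 fold change over 1. Log2 CPM used a prior count of 2. Alternatives used DESeq2 1.42.0, limma 3.58.1 on log2(TPM + 1) and log2(TPM + 0.1), RLE size factors, other count filters, 2 groups alone, the library number as a block, and each library left out; leaving out both young libraries 81 was added after seeing the data. Deviations of same-numbered young libraries from their group means correlated over all tested genes (r = 0.179 to 0.500, all above 0.1), so the number in the deposited names was taken to pair them. Deviations cancel out within a group, so these values of r are not independent of each other. Young and adult libraries of 1 number did not correlate in this way (r = -0.00178 to 0.0412). Named genes are the 10 members, the 3 largest rises and 3 largest falls per comparison past the threshold in the related lists, and the 10 genes most like the members. No 2 libraries of a group agreed within counting noise (mean chi-square per gene at least 8.74). Scripts were tested on simulated data.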

Additional observations from a re-analysis of the deposited data

How the results depend on the processing

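In every alternative run, the 6 genes below adults in both comparisons (*Fos*, *Junb*, *Jund*, *Egr1*, *Dusp1*, *Nr4a1*) kept their direction. Between the young populations fold changes near 0 changed sign: *Junb* became 0.00112 with RLE size factors, 0.000298 with no count filter, 0.00112 with DESeq2, 0.000579 with RSEM expected counts, 0.00436 with the replicate block over all 9 libraries and 0.00443 with the block over the young libraries alone, and *Nr4a1* became -0.000724 without both young libraries 81. With the block over the young libraries alone 2 of 10 genes passed the threshold, not 0. Limma on log2(TPM + 1) and on log2(TPM + 0.1) passed 4 genes in each age comparison, not 6 and 7, and in the TOM- one 0, not 1, with a log2 fold change over 1, and *Ier2* was 0.0840 and 0.0841 there; those scales moved the median of all genes to 0.14 and 0.22. The block over all 9 libraries, whose numbers did not pair the ages, gave 2 such genes and *Ier2* at 0.13, and passed 9 genes in each age comparison: *Fosb*, *Jun* and *Ier2* were added for TOM+ cells, and *Fosb* and *Atf3* for TOM- cells. It changed no other call. Without both young libraries 81, 0 genes were past a log2 fold change of 1 for TOM- cells, *Ier2* was 0.14, and *Atf3* was 0.0240 for TOM+ cells. Of the 10 genes with a like pattern, 6 were shared with the log2(TPM + 1) scale. The causes were not tested.

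With each library left out in turn, the log2 fold changes between the young populations ran from -0.16 to 0.25 for *Fos*, -0.46 to 0.30 for *Fosb*, -0.13 to 0.11 for *Junb*, -0.42 to 0.13 for *Jund*, -0.11 to 0.24 for *Egr1*, -0.11 to 0.28 for *Ier2*, -0.18 to 0.41 for *Atf3*, -0.17 to 0.25 for *Dusp1* and -0.11 to 0.16 for *Nr4a1*. Against adults, *Ier2* ran from -0.0753 to 0.23 and *Atf3* from -0.53 to 0.0451 for TOM+ cells, and *Ier2* from -0.18 to 0.15 for TOM- cells. The genes past the threshold numbered 2 to 7 in each age comparison, and those also past a log2 fold change of 1 numbered 0 to 4 and 0 to 5. The 3 libraries a group and the spread between them, not read depth, limit these comparisons; each library number has 1 library per group.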
